A study of Mus musculus with 14 samples.

Results

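The clustered protocadherins are cell surface adhesion proteins of the cadherin superfamily, encoded by 3 neighbouring gene clusters named alpha, beta and gamma. Members were chosen by symbol, as every gene whose name carries the Pcdha, Pcdhac, Pcdhb, Pcdhga, Pcdhgb or Pcdhgc prefix followed by a number. This rule found 58 of 49315 genes in the count table, 14 alpha, 22 beta and 22 gamma genes, with 57 symbols because Pcdha11 stood on 2 gene identifiers. The family was selected with the age difference of its members in view, so that difference is given below as a description. Calls of members come from a fit across all genes and are no independent evidence, and p-values of single genes are printed for other genes only.

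Hearts came from male wild-type C57BL/6 mice on a standard chow diet, sampled at 12 or 68 weeks of age. Total RNA was sequenced in 4 libraries per age, and H3K27me3, the histone mark that Polycomb repressive complex PRC2 lays down, was profiled by CUT&RUN with 2 libraries and 1 input per age. The series title concerns dietary glutamine and cardiac ageing, and both groups here differ in age alone as labelled. Whether each library is a separate mouse is not stated, so every error and p-value describes the spread among libraries, which may be technical.

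In neurons, clustered protocadherins form homophilic recognition complexes, and different cells use different combinations of them, which lets a neuron tell its own branches from those of its neighbours. Each alpha and gamma gene consists of its own large variable exon spliced to constant exons that all genes of that cluster share, whereas each beta gene is essentially a single large exon with no shared constant part. Promoter choice depends on CTCF and cohesin, which loop a promoter to a distant enhancer, and on DNA methylation, and the C-type genes at the ends of the alpha and gamma clusters are regulated apart from the others.

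All 58 genes lie on the plus strand of chromosome 18 (mm10 by label). The alpha cluster ran from 36930184 to 37187661, the beta cluster from 37264938 to 37524479 and the gamma cluster from 37661793 to 37841873. Gaps of 77.3 kb and 137 kb separated them. Library totals ran from 23599296 to 34599121 counts, and the members took 2744 to 4504 counts in a library. All 10 cardiomyocyte markers had counts in every library. Summed airway markers varied widely between libraries, at 1815, 977, 580 and 67.8 CPM of total counts in 12-week replicates 1 to 4 and at 30.6, 19.0, 1091 and 27.4 CPM in 68-week replicates 1 to 4. Because airway RNA was higher in most 12-week libraries, the age difference of members was also estimated with it in the model.

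Gamma genes were the most highly counted members per length of unshared exon and alpha genes the least. Levels between genes were compared as CPM per kb of exon that no other gene shares. Only the length leaves out the constant exons. The counts are those of the whole gene, so any reads credited to constant exons would raise gamma and alpha levels against beta. Reads left out there would instead lower gamma and alpha levels per kb of all exons. Per kb of all exons and over both ages, Pcdhgc3 and Pcdhga2 stood at 2.76 and 1.63 and the highest beta gene, Pcdhb20, at 1.43. At 12 weeks the median gamma gene stood at 1.33 CPM per kb over 21 genes, the median beta gene at 0.222 over 22 and the median alpha gene at 0.005 over 14. At 68 weeks these medians were 1.26, 0.229 and 0.010 CPM per kb.

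**Figure D1:**
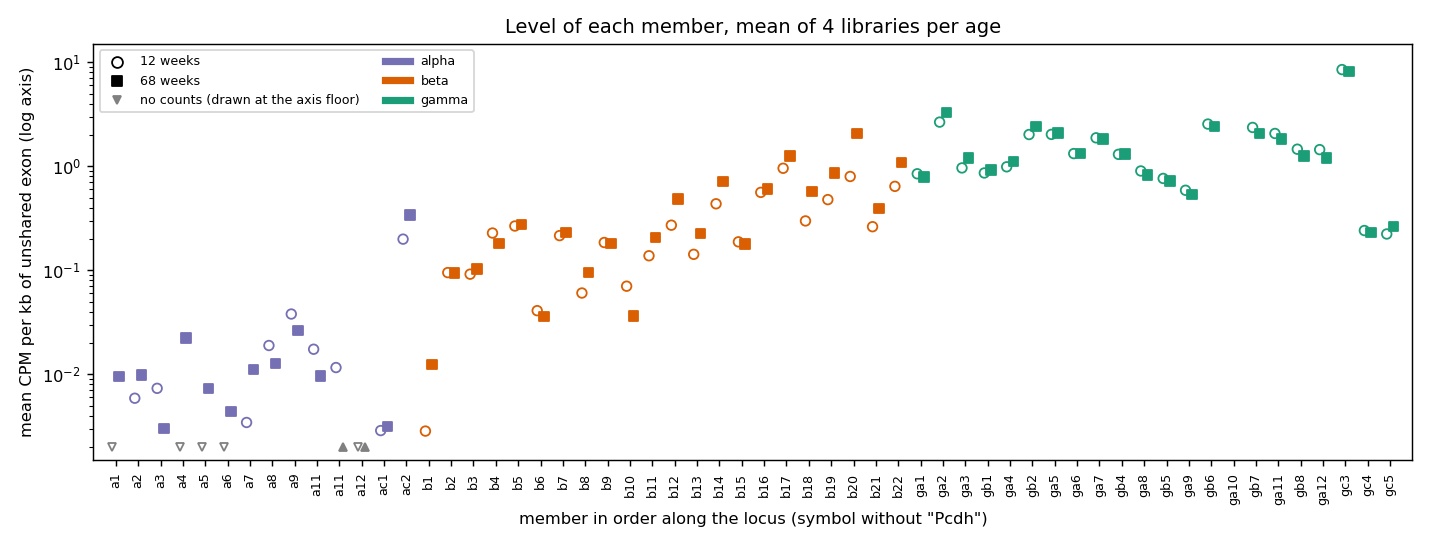
Mean CPM per kb of unshared exon (log axis) for each member in order along the locus, at 12 weeks (open circles) and 68 weeks (filled squares), mean of 4 libraries per age. Gamma genes reach the highest levels, beta levels are higher towards the end of that cluster, and alpha genes other than Pcdhac2 lie near the floor. Pcdhga10 has no unshared exon and no point. Counts are those of the whole gene, and only the length is that of unshared exon.

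Alpha genes were close to undetected, with 1 exception. The 13 alpha genes other than Pcdhac2 had 59 counts in the 8 libraries together and no more than 5 in any library, and Pcdha12 had none. The first gene, Pcdha1, had 3 counts in all, and the C-type gene Pcdhac1 had 2. Pcdha9 and Pcdha8, which followed Pcdhac2 in level over all 8 libraries, had 0.038 and 0.019 CPM per kb at 12 weeks and 0.026 and 0.013 at 68 weeks, when Pcdha4 stood at 0.022 on a single count. At this depth these genes could not be compared between ages.

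Pcdhac2, the last alpha gene and a C-type gene with a role in the spacing of serotonergic axons, was the exception. It had 0.619, 0.61, 0.861 and 0.325 CPM in 12-week replicates 1 to 4 and 1.03, 0.865, 1.29 and 0.922 CPM in 68-week replicates 1 to 4. Every 68-week library was above every 12-week library, though the closest values, 0.861 and 0.865 CPM, nearly met. The mean was 0.604 ± 0.219 CPM (SD, n = 4) at 12 weeks and 1.03 ± 0.188 (SD, n = 4) at 68 weeks, a log2 fold change of 0.77 ± 0.28 (SE) at 9 to 40 counts per library. It was not called.

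The age comparison asked which genes differ between the hearts of the younger and older mice. Here a gene was called when its edgeR p-value, adjusted over 15947 genes, was at most 0.05. Of the 58 members, 40 had enough counts to enter the test, namely 1 alpha, 17 beta and all 22 gamma genes. The lowest that entered, Pcdhb3, had 88 counts over 8 libraries, and the highest that did not, Pcdhb8, had 66. Of these 40, 6 were called higher at 68 weeks and 0 were called lower, against 1.61% of all genes called higher and 1.22% called lower, or 2.83% in either direction. The called genes were Pcdhb14, Pcdhb17, Pcdhb18, Pcdhb19, Pcdhb20 and Pcdhb22. At an unadjusted edgeR p under 0.05, 13 of the 40 were higher and 0 lower, against 1476 higher and 1558 lower among all 15947 genes. DESeq2 called the same 6, among 557 genes higher and 455 lower. Since the family was selected on this contrast, nothing is read from the count.

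The called members all lie in the beta cluster, towards its end. The median log2 fold change, 68 minus 12 weeks, was 0.58 over the 17 beta genes tested, with 14 above 0 and 3 below. Over the 22 gamma genes it was -0.05, with 9 above and 13 below, and over all 15947 genes tested it was -0.01. All 6 called genes lie among beta positions 12 to 22 of 22, where 11 genes were tested, the median was 0.71 and 10 were above 0. Among beta positions 1 to 11, where 6 genes were tested, the median was 0.07 and 4 were above 0.

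**Figure D2:**
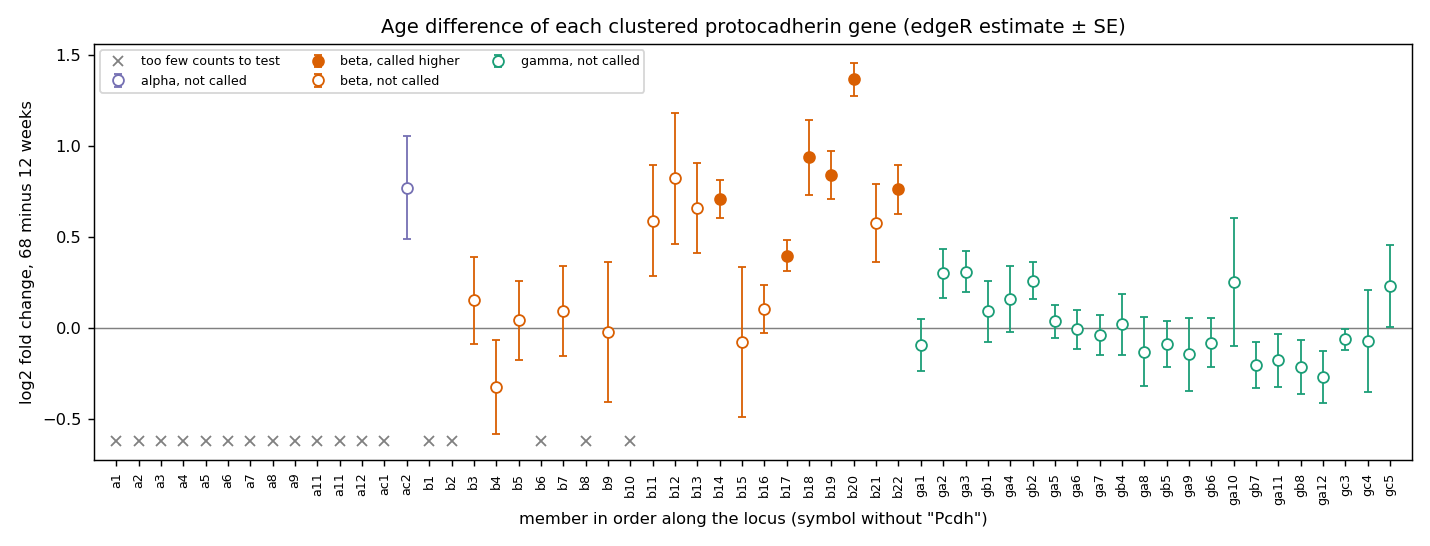
Log2 fold change (68 minus 12 weeks, edgeR) ± SE for each tested member in order along the locus, with called genes filled and genes with too few counts marked by crosses. The 6 called genes lie between Pcdhb14 and Pcdhb22, and gamma genes lie between -0.27 and 0.31.

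Pcdhb20 had the largest difference of any member. It was at 2.71, 3.09, 2.71 and 2.85 CPM in 12-week replicates 1 to 4 and at 7.85, 7.14, 7.54 and 6.84 CPM in 68-week replicates 1 to 4. The groups were far apart and each was tight, and the log2 fold change was 1.37 ± 0.090 (SE), from a mean of 2.84 ± 0.178 to 7.34 ± 0.442 CPM (SD, n = 4 each). These values rest on 63 to 92 counts per library at 12 weeks and on 198 to 237 at 68 weeks. Per kb of unshared exon it ranked second among beta genes at 12 weeks (0.798 ± 0.050 CPM per kb) and first at 68 weeks (2.06 ± 0.124).

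Its neighbours upstream, Pcdhb18 and Pcdhb19, followed in size. Pcdhb18 was at 1.71, 1.08, 1.68 and 1.55 CPM at 12 weeks and at 2.45, 2.56, 3.9 and 2.65 CPM at 68 weeks. Pcdhb19 was at 3.74, 3.2, 2.71 and 4.01 CPM at 12 weeks and at 6.09, 5.91, 5.7 and 6.87 CPM at 68 weeks. The ages did not overlap for either gene, and 68-week replicate 3 stood above the other 3 libraries of its age for Pcdhb18. The log2 fold changes were 0.94 ± 0.21 for Pcdhb18 and 0.84 ± 0.13 for Pcdhb19.

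Pcdhb22, the last gene of the beta cluster, was at 4.65, 3.88, 4.26 and 3 CPM at 12 weeks and at 7.42, 6.85, 6.25 and 6.34 CPM at 68 weeks. Pcdhb14 was at 3.45, 3.45, 3.83 and 4.44 CPM at 12 weeks and at 5.7, 6.27, 6.41 and 6.4 CPM at 68 weeks. Pcdhb17 had the highest beta level per kb at 12 weeks (0.957 ± 0.075) and was at 4.62, 4.13, 4.22 and 4.87 CPM then, against 5.89, 5.66, 5.99 and 6.01 CPM at 68 weeks. None of these genes overlapped between ages. Log2 fold changes were 0.76 ± 0.13 for Pcdhb22, 0.71 ± 0.11 for Pcdhb14 and 0.40 ± 0.086 for Pcdhb17.

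**Figure D3:**
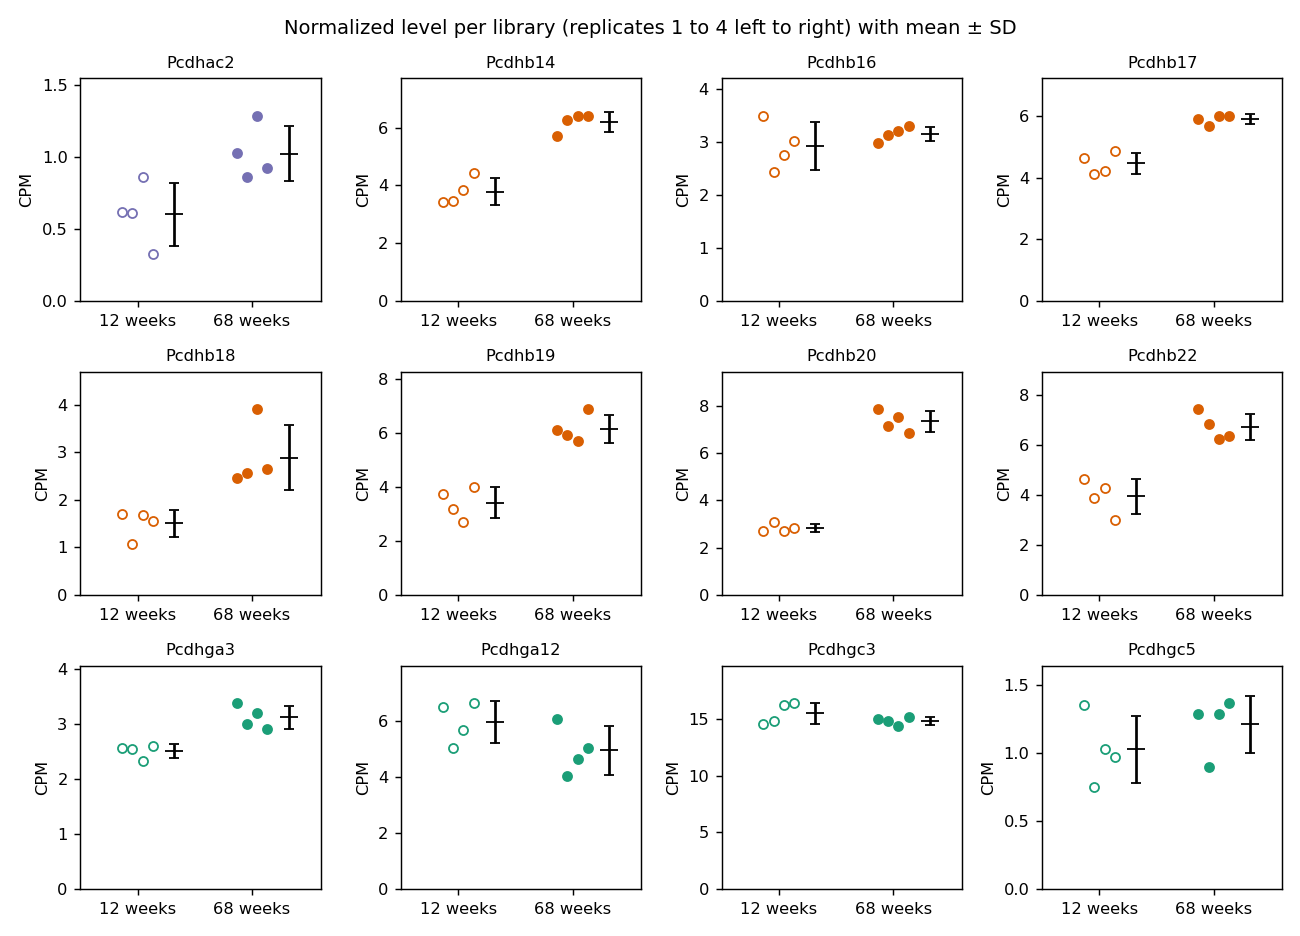
CPM in each of the 4 libraries per age (open circles at 12 weeks, filled circles at 68 weeks) with the mean ± SD, for 12 members, each on its own linear axis. The ages are separate for Pcdhb14, Pcdhb17, Pcdhb18, Pcdhb19, Pcdhb20 and Pcdhb22 and also for Pcdhac2 and Pcdhga3, which were not called. They overlap for Pcdhb16, Pcdhga12, Pcdhgc3 and Pcdhgc5.

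Other genes at positions 12 to 22 were not called. Pcdhb16 was at 3.51, 2.44, 2.75 and 3.03 CPM at 12 weeks and at 2.98, 3.14, 3.22 and 3.3 CPM at 68 weeks, so the ages overlapped and the log2 difference was 0.10 ± 0.13, although its counts (64 to 119 per library) were like those of Pcdhb20 at 12 weeks. Within each library, Pcdhb20 had 0.773 to 1.26 times the counts of Pcdhb16 at 12 weeks and 2.07 to 2.63 times at 68 weeks. Pcdhb15, at 0.526 ± 0.172 and 0.499 ± 0.272 CPM, also overlapped, with a log2 fold change of -0.07 ± 0.41. Pcdhb21 ranged from 0.826 to 1.38 CPM at 12 weeks and from 1.37 to 2.05 CPM at 68 weeks (log2 fold change 0.58 ± 0.21), and Pcdhb12 and Pcdhb13 had 0.83 ± 0.36 and 0.66 ± 0.25.

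Towards the start of the cluster the values were low. Pcdhb1, the first gene, had 5 counts in all, 4 of them in 68-week replicate 3. Among the 17 beta genes tested, Pcdhb4 had the lowest log2 fold change at -0.32 ± 0.26, from 0.849 ± 0.217 to 0.673 ± 0.154 CPM. Pcdhb5 was at 0.942 CPM at 12 weeks and 0.975 CPM at 68 weeks. Levels per kb of unshared exon had a median of 0.095 at 12 weeks and 0.103 at 68 weeks over positions 1 to 11, against 0.436 and 0.605 over positions 12 to 22. Across the 17 tested beta genes the log2 fold change went with position (Spearman's rho 0.62). Its correlation with level per kb, averaged over both ages, had a rho of 0.58. That level includes the 68-week values that also enter the fold change, so this correlation is partly built in. Level itself went with position over the 22 genes (rho 0.77). These are descriptions across genes that share 8 libraries, and position and level cannot be separated with them.

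Summed over the whole cluster, beta genes reached 32.2, 27.9, 30 and 30.9 CPM in the 12-week libraries (replicates 1 to 4) and 47.8, 45.2, 48.1 and 47.1 CPM in the 68-week libraries. The mean was 30.3 ± 1.78 CPM at 12 weeks and 47.1 ± 1.31 CPM at 68 weeks (SD, n = 4 each), a ratio of 1.55. Positions 12 to 22 went from 25.4 ± 1.86 to 41.9 ± 1.13 CPM, whereas positions 1 to 11 were at 4.91 ± 0.303 and 5.19 ± 0.506 CPM. In heart tissue as a whole, more cells that use these genes and more RNA per cell cannot be told apart.

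The gamma cluster sum was almost the same at both ages. It was at 94.1, 79.6, 87 and 89.5 CPM at 12 weeks and at 93.9, 81.3, 89 and 85.7 CPM at 68 weeks, overlapping fully, with means of 87.5 ± 6.05 and 87.5 ± 5.31 CPM. Gamma positions 1 to 11 had a median log2 fold change of 0.04, with 7 of 11 above 0. Positions 12 to 22 had a median of -0.09, with 2 of 11 above 0. Across all 22 gamma genes the log2 fold change was lower towards the end of the cluster (rho -0.49, a description across genes of the same libraries), opposite in sign to the beta cluster.

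Because both clusters lie in the same libraries, their division of the counts needs no normalization between libraries. Beta genes took 25.3, 25.8, 25.4 and 25.6% of all member counts in 12-week replicates 1 to 4 and 33.4, 35.4, 34.7 and 35.1% in 68-week replicates 1 to 4, and the widest 95% Wilson interval was 1.63 points to each side. These intervals cover counting error only. The ratio of beta to gamma counts was 0.342 to 0.351 at 12 weeks and 0.509 to 0.556 at 68 weeks.

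**Figure D4:**
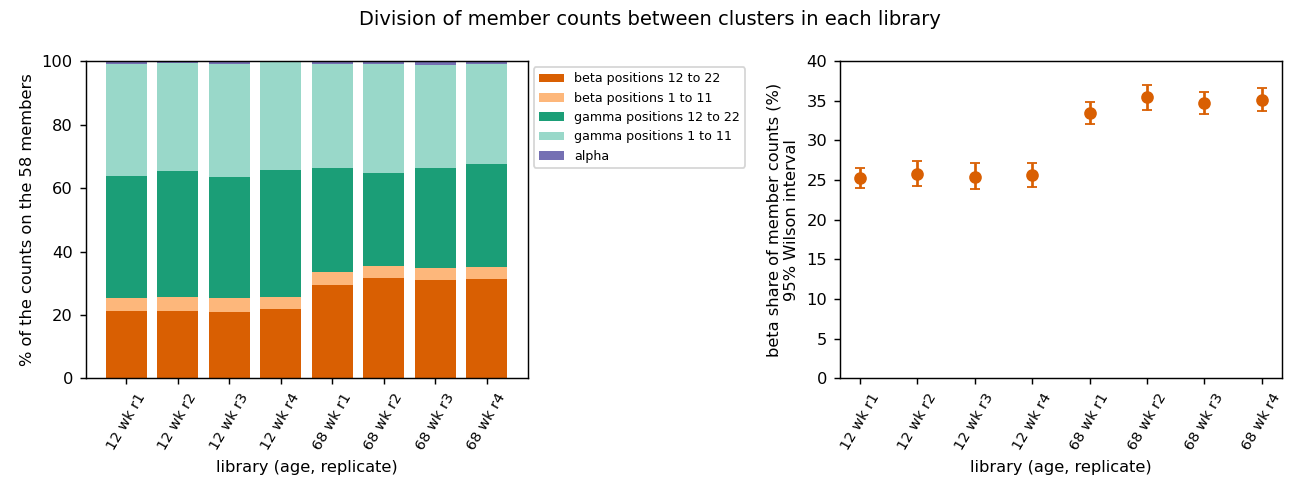
Left, percent of member counts taken by alpha, beta (positions 1 to 11 and 12 to 22) and gamma genes (same split) in each of 8 libraries. Right, the beta share with its 95% Wilson interval. The 4 libraries at 12 weeks lie between 25.3 and 25.8% and the 4 at 68 weeks between 33.4 and 35.4%.

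Pcdhgc3, a C-type gamma gene whose protein binds the Wnt pathway scaffold Axin1, had the highest level per kb of any member. It had 8.51 CPM per kb of unshared exon at 12 weeks and 8.15 at 68 weeks. Over both ages this level was 8.33, against 2.76 per kb of all its exons. It was at 14.6, 14.8, 16.2 and 16.4 CPM at 12 weeks and at 15, 14.8, 14.4 and 15.2 CPM at 68 weeks, with overlapping ages and a log2 fold change of -0.06 ± 0.060. The other C-type gamma genes were low. Pcdhgc4, needed for the survival of cortical interneurons, was at 0.839 ± 0.232 and 0.806 ± 0.218 CPM, and the last gene, Pcdhgc5, was at 1.03 ± 0.248 and 1.21 ± 0.211 CPM. Both overlapped between ages.

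Pcdhga2 and Pcdhgb6 followed Pcdhgc3 in level per kb over all 8 libraries, at 2.66 and 2.55 at 12 weeks and 3.29 and 2.41 at 68 weeks, when Pcdhgb2 (2.42) was level with Pcdhgb6 within their spread. Pcdhga2 was at 7.16, 6.18, 6.07 and 7.98 CPM at 12 weeks and at 9.04, 9.73, 8.54 and 6.57 CPM at 68 weeks. The ages overlapped through 68-week replicate 4, and the log2 fold change was 0.30 ± 0.14. Pcdhga3 had the largest gamma value, 0.31 ± 0.11, from 2.51 ± 0.125 to 3.12 ± 0.208 CPM without overlap, and was not called. Pcdhga12 had the lowest, -0.27 ± 0.14, from 5.97 ± 0.756 to 4.96 ± 0.865 CPM with overlap. The first gene, Pcdhga1, was at 2.41 ± 0.0499 and 2.26 ± 0.377 CPM. In all, 9 tested members did not overlap between ages with 68 weeks higher and 0 with 68 weeks lower, against 6.26% and 5.86% of all genes tested.

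The constant exons of the gamma cluster are shared by its 22 genes, and the sources used here do not give the counting rule. Gm37013, Gm37388, Gm38182 and Gm42416, predicted genes that overlap every gamma gene, had 0 counts in every library. Pcdha12 also had 0, though it shares constant exons with Pcdhac2, which had 9 to 40 per library. Reads there were thus not credited to every gene that shares them. Gamma and alpha sums may leave out reads of constant exons. Counts of single gamma and alpha genes remain uncertain, as do those of near-identical beta genes. Pcdhga10 has no unshared exon, since the antisense gene Gm26672 covers it, and its 6 to 22 counts per library cannot be assigned to a strand. Pcdhb21 and Pcdhb22 share 455 bases of exon. The log2 difference at Gm26672 itself was 0.03 ± 0.24 (adjusted p = 0.957, edgeR).

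With account taken of airway RNA, fewer genes were called in all, and most of the called members lost their call. With airway markers as a covariate, 68 of all genes were called higher and 19 lower, in place of 256 and 195. The loss of calls was thus not particular to the members. With summed airway markers in the model, the log2 fold changes of the 6 genes were 0.65 ± 0.13 (Pcdhb14), 0.38 ± 0.11 (Pcdhb17), 1.15 ± 0.21 (Pcdhb18), 0.75 ± 0.16 (Pcdhb19), 1.39 ± 0.12 (Pcdhb20) and 0.84 ± 0.17 (Pcdhb22), and only Pcdhb20 was called. Among the 4 libraries lowest in airway RNA, 1 at 12 weeks against 3 at 68 weeks, they ran from 0.27 (Pcdhb17) to 1.35 (Pcdhb20). Among the 4 highest, 3 against 1, they ran from 0.47 (Pcdhb17) to 1.41 (Pcdhb20). Neither set of 4 called a member. With each of the 8 libraries left out in turn, the call was lost in 4 cases for Pcdhb22, in 7 for Pcdhb17 and in all 8 for Pcdhb18.

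**Figure D5:**
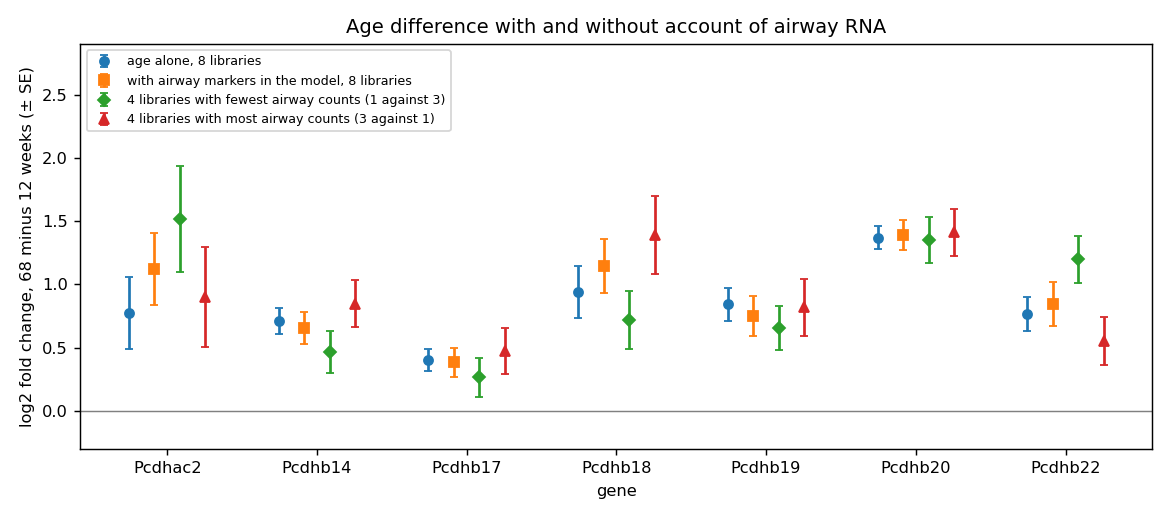
Log2 fold change (68 minus 12 weeks) ± SE of Pcdhac2 and the 6 called genes under 4 settings, namely age alone, airway markers in the model, and the 4 libraries with the fewest or the most airway counts. All values lie above 0, and Pcdhb20 lies between 1.35 and 1.41 in each.

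Other cell type markers also differed in level. Summed fibroblast markers (CPM of total counts) ranged from 2319 to 2646 at 12 weeks and from 1769 to 2177 at 68 weeks. Adipocyte markers ranged from 194 to 576 and from 23.6 to 129, and neither sum overlapped. Single markers differed in direction. By log2 fold change Gsn (-0.21), Col1a1 (-0.73), Col1a2 (-0.53), Pdgfra (-0.25), Mfap5 (-0.25) and Tcf21 (-0.05) were below 0. Dcn (0.07), Lum (0.33) and Dpt (0.13) were above 0. Gsn alone had a mean of 1247 normalized CPM at 12 weeks and 1078 at 68 weeks. The adipocyte marker Lep was at 0.85, against a list median of -1.72. Neuron markers, at 9.20 to 19.5 and 11.6 to 21.1, and Schwann cell markers, at 43.7 to 59.0 and 43.7 to 56.0, overlapped. By edgeR, 0 of 6 tested neuron markers (1 at an unadjusted p under 0.05, 0 called by DESeq2), 1 of 8 Schwann cell markers (higher), 1 of 9 fibroblast markers (lower) and 3 of 7 adipocyte markers (lower) were called, as were 0 of 17 airway markers (4 at an unadjusted p under 0.05, 0 called by DESeq2). Of all genes tested, 2.83% were called by edgeR. The part of these cell types in the beta result was not tested.

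Of 27 genes that lie inside the locus without being members, 3 were tested. By edgeR or DESeq2 0 were called, against 2.83% of all genes by edgeR, and nothing is read from so small a count. Taf7, a general transcription factor gene between the beta and gamma clusters, was at 10.2 ± 0.683 CPM at 12 weeks and 8.42 ± 0.8 CPM at 68 weeks (log2 fold change -0.28 ± 0.086, adjusted p = 0.115, edgeR). 3222401L13Rik, which precedes the gamma cluster, had -0.06 ± 0.080 (adjusted p = 0.748, edgeR). Of the nearest genes outside, Hars2, Zmat2, Diaph1 and Hdac3 were tested, with log2 fold changes of -0.05, -0.04, -0.01 and -0.04. Of these 7 genes, 1 (Taf7) had an unadjusted p under 0.05.

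Of 12 listed protocadherins outside the clusters, 10 were tested and 0 were called, against 2.83% of all genes by edgeR. At that share 10 genes need not hold a call, and nothing is read from the count. Their median log2 fold change was -0.09 against -0.01 for all genes. At an unadjusted edgeR p under 0.05, 2 were lower and 0 higher, against 1558 lower and 1476 higher of all 15947 genes. DESeq2 called 2, Pcdh17 and Pcdh18, among 455 genes lower and 557 higher. Pcdh7, with the most counts of them, was at 194 ± 9.24 and 196 ± 5.29 CPM (log2 fold change 0.02 ± 0.049, adjusted p = 0.884, edgeR). Pcdh1 and Pcdh19 had 0.09 ± 0.14 and 0.11 ± 0.14. Pcdh17, at -0.87 ± 0.22 (adjusted p = 0.0678, edgeR), and Pcdh18, at -0.43 ± 0.12 (adjusted p = 0.0846), missed the threshold.

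As regulators, 32 genes were listed by process, and a role at the clusters is not established here for each. All were tested, and 3 were called lower and 0 higher, against 1.22% and 1.61% of all genes. The 3 called were among the 9 in DNA methylation, in a list chosen with earlier results known. The median log2 fold change was -0.06, with 27 of 32 below 0, against 8312 of all 15947 genes. At an unadjusted edgeR p under 0.05, 8 of the 32 were lower and 0 higher, against 1558 lower and 1476 higher of all genes. Uncalled groups thus also held lower values. Calls were 0 of 11 for promoter and enhancer looping (3 lower at an unadjusted edgeR p under 0.05), 0 of 8 for silencing (1 lower) and 0 of 4 for PRC2 (1 lower), and DESeq2 also called Mau2, a cohesin loader subunit, at -0.17. Ctcf, which binds the promoters and anchors the loops, was at 46.1 ± 3.48 and 44.8 ± 1.63 CPM (log2 fold change -0.04 ± 0.059, adjusted p = 0.734, edgeR). Smchd1, which represses the clusters, had -0.02 ± 0.051 (adjusted p = 0.879), and Dnmt3b, a methyltransferase that acts on their promoters, had -0.21 ± 0.16 (adjusted p = 0.51) at 1.21 ± 0.0861 and 1.04 ± 0.0667 CPM.

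All 3 regulators called encode enzymes that add or oxidise methyl groups on cytosine. Tet1, which starts demethylation by oxidising methylcytosine, fell from 16.4, 17.1, 16.4 and 18.7 CPM at 12 weeks to 12.1, 9.7, 12.4 and 9.91 CPM at 68 weeks, without overlap (log2 fold change -0.64 ± 0.095, adjusted p = 0.011, edgeR). Tet3, a related oxidase, fell from 55.5 ± 2.49 to 43.2 ± 3.81 CPM (-0.36 ± 0.068, adjusted p = 0.0283, edgeR). Dnmt3a, which adds new methyl groups, fell from 95.8 ± 4.26 to 81.4 ± 3.81 CPM (-0.24 ± 0.051, adjusted p = 0.0445, edgeR). With airway markers in the model the log2 fold changes were -0.60, -0.36 and -0.24 and none was called (adjusted p = 0.0654, 0.132 and 0.184, edgeR). Leaving out each library in turn, Tet1 was called in all 8 cases, Tet3 only without 68-week replicate 1 or 4, and Dnmt3a in none.

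Partners that bind the proteins or cut them at the cell surface were also listed. The 21 genes include the kinases Ptk2 and Ptk2b, the WAVE complex genes and the protease gene Adam10. Of them, 20 were tested and 0 were called by edgeR or DESeq2, against 2.83% of all genes by edgeR. At that share 20 genes need not hold a call. None had an unadjusted edgeR p under 0.05, against 3034 of all 15947 genes, and the median log2 fold change was -0.01.

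No member was linked to an H3K27me3 region. The authors deposited 1 list of regions per age, each said to be unique to its age, with 1164 regions at 12 weeks and 3433 at 68 weeks, and 0 of either list carried a member's name. The lists hold differences only and no value per library, so they cannot show the level of the mark at these genes. The genome build of their coordinates was not established. Pcdh1, for example, was linked to a 12-week region 131 kb away from its position in the count tables.

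Read as listed, a single region of the 12-week list lay between the first and last member, at 37782021 to 37782231 on chromosome 18, with a score of 3.60 against a list median of 4.50. The authors linked it to 3 predicted genes whose exons span the locus, and not to any of the 19 gamma genes whose spans in the count tables cover that position, so its place relative to the members is uncertain. Another 4 regions of that list, without a linked gene, lay 72.7 to 90.2 kb before Pcdha1 as listed. These distances are uncertain too, since the build of the listed coordinates was not established. The widest of the 4, 2039 bases from 36854714 to 36856752, had a score of 7.54. Of other protocadherins, Pcdh1 was linked to 1 region and Pcdh17 to 2 in the 12-week list, and 0 were linked in the 68-week list.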

How the data were processed

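RNA was measured in 4 heart libraries per age. The authors deposited raw read counts for each gene, per the file headers and the whole-number values. The submitters' processing notes name, without role or order, DESeq2, Subread 1.5.2, featureCounts, STAR 2.5.2b and Trimmomatic 0.36. The sources used here do not give how strand and multiple matches were counted. Deposited region lists give a score per region, called enrichment, with no stated scale. The same notes name mm10, MACS3 3.0.0b1, Picard 2.26.2, SAMtools 1.14, Bowtie2 2.4.2 and Trim Galore 0.6.5.

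The test across genes used edgeR 4.0.16 under R 4.3.3 (quasi-likelihood test, TMM, filterByExpr, age alone, Benjamini-Hochberg adjustment over 15947 genes at 0.05). The approximate SE is the log2 fold change over the root of its F statistic. CPM uses normalized library sizes, except marker sums, which use total counts. Over all genes, every same-age pair of libraries differed by more than sampling noise (chi-square per degree of freedom at least 15.7). Computed gene by gene within the ages, this value had a median of 1.50 (0.22 to 5.03) over the 40 tested members. Alternatives were DESeq2 1.42.0 on the genes edgeR kept, other size factors, library size alone, no filter on low counts, airway markers as a covariate, a replicate block, 4 libraries at a time by airway counts, each library left out, levels per kb of all exons, and regions by position or score.

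Members and gene lists were chosen with earlier results of these data known. Described singly were called members, C-type members, and in each cluster the 3 highest levels per kb, the first and last gene and the largest and smallest log2 fold change. Of other lists, called genes, the 3 protocadherins with most CPM, Ctcf, Smchd1 and Dnmt3b were named. Pcdhb12, Pcdhb13, Pcdhb15, Pcdhb16, Pcdhb21, Pcdhb5, Pcdhga10, Pcdha4, Pcdhgb2, Pcdh17, Pcdh18, Mau2 and the neighbouring genes were named after their values were seen. No sequences are printed.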

Additional observations from a re-analysis of the deposited data

Results flagged for a closer look

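In 5 of 104 groups of 4 libraries checked, 1 library stood far from the other 3 by Dixon's criterion, which chance alone does in about 5% of groups. Pcdhb18 was at 3.90 CPM in 68-week replicate 3 against 2.45 to 2.65 in the other 3. Pcdhb9, a beta gene that was not called, was at 0.960 CPM in 68-week replicate 1 against 0.397 to 0.446. Pcdhgb6 was at 4.58 CPM in 68-week replicate 2 against 6.66 to 6.77, and Pcdhgc5 was at 0.901 CPM in the same library against 1.29 to 1.37. Pcdhga11 was at 2.86 CPM in 12-week replicate 1 against 2.50 to 2.53.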

How the results depend on the processing

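Depth limits the alpha genes and beta positions 1 to 11 most of all, and 18 members had too few counts to test. The log2 fold changes of the 6 called members stayed above 0 under all 16 alternatives, and calls depended on the setting. The family was selected on this contrast, so neither is a sign of stability. Pcdhb20 was called in 14 of 16, Pcdhb14 and Pcdhb19 in 13 each, Pcdhb22 in 9, and Pcdhb17 and Pcdhb18 in 3 each. With library size alone, 176 genes were higher and 248 lower in place of 256 and 195, and 4 members were higher. With airway markers in the model 68 genes were higher and 19 lower, 1 member was higher and 0 regulators were called. The 4 libraries with the fewest airway counts gave 10 higher, 23 lower, 0 members, 0 regulators and a summed alpha log2 ratio of 1.44. The 4 with the most gave 4 higher, 1 lower, 0 members and 0 regulators. A lone library in these fits is assumed to vary like those of the other age, and fewer samples were tested. DESeq2 called 557 higher and 455 lower. Other protocadherins called were 1 (Pcdh17) with no filter on low counts and 2 with DESeq2. Linking regions by position as listed gave 1 in place of 0, with the build of those coordinates not established.

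Leaving out each library in turn gave 117 to 209 genes higher, 52 to 154 lower, 3 to 5 members higher, 0 to 1 other protocadherins and 1 to 2 regulators called, and summed log2 ratios of 0.36 to 0.74 for alpha, 0.60 to 0.67 for beta and -0.044 to 0.035 for gamma. Pcdhb14, Pcdhb19 and Pcdhb20 were called in all 8 cases. Member calls dropped from 6 to 3 without 12-week replicate 2 or 68-week replicate 1, 2 or 4, where Pcdhb22 was lost, Pcdhb18 was called in none of the 8 and Pcdhb17 in 1, without 12-week replicate 4.

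Values near 0 changed sign for 3 named genes outside the clusters. Ctcf was at 0.012 without 12-week replicate 4. Smchd1 was at 0.029 with airway markers, 0.047 in the 4 libraries highest in airway RNA, 0.0024 without 12-week replicate 1 and 0.019 without 68-week replicate 2. Pcdh7 was at -0.040 with library size alone, -0.034 with airway markers, -0.055 in the 4 lowest and -0.0042 without 12-week replicate 1. With each library left out in turn, Ctcf ran from -0.069 to 0.012, Smchd1 from -0.040 to 0.019 and Pcdh7 from -0.0042 to 0.048. Of the uncalled members named, Pcdhb4, Pcdhb5, Pcdhb9, Pcdhb15, Pcdhga1, Pcdhga10, Pcdhgb6 and Pcdhgc4 also changed sign under at least 1 alternative. The cause was not tested.

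Same-numbered libraries of the 2 ages share only a number. The correlations of their deviations were -0.24, -0.041, 0.041 and 0.33. With the replicate number as a block, 112 genes were higher and 48 lower, 4 members were higher and 0 regulators were called.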

Other observations

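Regions were also linked to genes of the partner list. In the 12-week list 1 region was linked to Nlgn1, which encodes a synaptic adhesion protein. In the 68-week list 4 regions were linked, 1 to Cyfip2, a WAVE complex gene, 1 to the receptor kinase gene Ret and 2 to the kinase gene Ptk2b. The 2 Ptk2b regions had scores of 7.94 and 4.14 against a list median of 4.77. In both lists 0 regions were linked to the regulators.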
